A study of Mus musculus with 4 samples.

Results

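The genes described here encode the proteins with which a cell detects nucleic acids in its cytosol and passes the signal on: Ddx58, Ifih1, Dhx58 and Mavs of the RIG-I arm, Tmem173 and Trex1 of the STING arm, Adar and Eif2ak2, which act on double-stranded RNA, and the shared kinases Tbk1 and Ikbke. Every ATAC-seq peak that overlapped the body of one of these genes, extended by 10 kb on each side, was listed. They are 10 of 21755 annotated protein-coding genes, and they hold 52 of the 71243 regions into which the peaks of the series were merged, or 52 of the 53779 regions at protein-coding genes. ATAC-seq maps open chromatin by letting the Tn5 transposase cut accessible DNA in nuclei, and the study used it to ask which sites open or close when macrophages lack the histone variant H3.3. Bone marrow-derived macrophages (BMDMs) were grown in medium with 20% L929-conditioned medium for 6 to 8 days and were assayed on day 7 per the study's methods. The mice were of C57BL/6 background, male and female, and 8 to 10 weeks old.

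WT mice carried the floxed alleles H3f3a fl/fl and H3f3b fl/fl without Cre, and H3.3cKO mice carried the same alleles with LysM cre/cre. Cre made from the LysM (Lyz2) locus acts in myeloid cells, where it deletes the floxed genes. The study's text and a supplementary note describe the deletion of H3f3b as variable, complete in some cases and partial in others. The text adds that its observations did not differ among such cKO samples. The extent of the deletion in these libraries was not measured here. Since Cre was present in H3.3cKO alone, loss of H3.3 and presence of Cre at Lyz2 cannot be told apart in these libraries. Each genotype had 2 libraries, labelled as biological replicates. No source used here says which mice they came from, and any spread given below is that between these libraries.

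RIG-I (Ddx58) and MDA5 (Ifih1) are helicases that bind viral or misplaced double-stranded RNA, and LGP2 (Dhx58) is a related helicase that modulates both. They signal through MAVS on the mitochondrial surface. Cytosolic DNA is sensed by cGAS, whose cyclic dinucleotide product activates STING (Tmem173), while the exonuclease TREX1 removes such DNA before it is sensed. MAVS and STING both recruit TBK1 and IKKε (Ikbke), the kinases that activate IRF3 and interferon transcription. ADAR edits adenosines in double-stranded RNA and so keeps the cell's own RNA from MDA5, and PKR (Eif2ak2) halts translation when it binds double-stranded RNA. Several of these genes are themselves interferon-stimulated genes (ISGs), switched on through interferon-stimulated response elements (ISREs) in their promoters.

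The ISRE core, searched as the letters GAAANNGAAA on both strands within 100 bp of a region's summit, lay in 5 of the 52 regions. Of the 10 promoter regions 4 held it, namely those of Ddx58, Ifih1, Tmem173 and Eif2ak2, against 246 of 10850 promoter regions of protein-coding genes (2.27%). The 30 bases around the matches at Ddx58, Ifih1 and Eif2ak2 are shown on the strand of the gene, from RefSeq's mouse assembly GRCm38.p6 (the coordinates of mm10), because they are the letters that these genes share and the rule did not use. Capitals mark the match.
Ddx58 promoter, chr4:40239804-40239833, reverse strand: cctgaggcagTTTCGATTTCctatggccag
Ifih1 promoter, chr2:62646204-62646233, reverse strand: gaagagaatcGAAACAGAAAccgatctgtg
Eif2ak2 promoter, chr17:78882535-78882564, reverse strand: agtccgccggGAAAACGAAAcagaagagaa
Ifih1 upstream region, chr2:62648882-62648911, reverse strand: gaggagaaaaGAAAAAGAAActtaacactg

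The matches at Ddx58, Ifih1 and Eif2ak2 began 5, 32 and 19 bp downstream of the annotated gene start. That of the Ifih1 upstream region began 2646 bp before it. A match is a description of the letters and not evidence that a factor bound there.

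Intronic regions of Ddx58, Ifih1, Mavs and Tbk1 that met a call are shown next, 1 or 2 per gene, as 151 bases around the summit of their top-ranked peak, again from GRCm38.p6 and on the strand of the gene. Capitals mark the motif cores found by the search: GAGGAA of PU.1, TGANTCA of AP-1 and TTCNNNGAA of the STAT element GAS, each read on either strand.
Ddx58 intron 10, called in H3.3cKO, chr4:40217981-40218131, reverse strand: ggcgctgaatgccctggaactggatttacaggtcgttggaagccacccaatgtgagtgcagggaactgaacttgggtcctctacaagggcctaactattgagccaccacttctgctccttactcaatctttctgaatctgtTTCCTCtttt
Ifih1 intron 1, higher in H3.3cKO, chr2:62643485-62643635, reverse strand: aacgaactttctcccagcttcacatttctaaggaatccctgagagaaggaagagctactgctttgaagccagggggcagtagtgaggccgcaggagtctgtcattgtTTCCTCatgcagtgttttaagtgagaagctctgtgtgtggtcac
Ifih1 intron 2, higher in H3.3cKO, chr2:62635434-62635584, reverse strand: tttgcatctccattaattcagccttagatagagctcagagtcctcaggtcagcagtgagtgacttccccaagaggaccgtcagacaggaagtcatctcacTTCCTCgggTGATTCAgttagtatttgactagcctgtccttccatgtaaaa
Mavs intron 1, lower in H3.3cKO, chr2:131234994-131235144, forward strand: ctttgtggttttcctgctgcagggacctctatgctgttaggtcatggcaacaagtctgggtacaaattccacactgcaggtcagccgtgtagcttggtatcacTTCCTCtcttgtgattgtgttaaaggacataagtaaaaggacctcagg
Tbk1 intron 7, higher in H3.3cKO, chr10:121564592-121564742, reverse strand: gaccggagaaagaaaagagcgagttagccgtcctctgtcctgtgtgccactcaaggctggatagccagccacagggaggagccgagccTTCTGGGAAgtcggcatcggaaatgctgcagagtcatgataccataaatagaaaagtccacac

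The value used throughout is a percentile. Genrich, the peak caller, deposited for each peak the area under its significance curve, and a peak's percentile is its rank by that area among all peaks of the same library, from near 0 for the weakest to 100 for the strongest. A region was gained when both H3.3cKO libraries and neither WT library had a peak in it, and lost in the opposite case. A region with a peak in all 4 libraries was called higher when both H3.3cKO percentiles lay above both WT percentiles and the means differed by at least 10 points, and lower in the opposite case. With 2 libraries a genotype, an exact permutation test has 6 assignments of the labels and cannot give a two-sided p below 0.333, so these calls say only that the libraries did not overlap.

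The WT lists held 55742 and 64939 peaks and the H3.3cKO lists 51955 and 60884, with read depth unknown. In each genotype replicate 2 had more peaks than replicate 1. Over the 34528 regions at protein-coding genes called in all 4 lists, the median difference, H3.3cKO minus WT, was -1.02 points. The promoter regions of 5 of 6 macrophage genes (Csf1r, Adgre1, Itgam, Cd68 and Mertk) had a peak in all 4 libraries, and the promoter rule found none at Spi1. Not all of them ranked alike in the genotypes: Csf1r, the receptor for M-CSF, had 73.7 and 85.3 in WT and 56.4 and 61.4 in H3.3cKO (-20.6 points), and Mertk, a receptor for dying cells, had 89.3 and 92.8 in WT and 73.9 and 79.1 in H3.3cKO (-14.5 points). Both differences lie within the range of sizes called at the sensor genes. Adgre1, Itgam and Cd68 differed by -1.60 to 2.25 points. Of 11 genes of other cell types, 10 had none in any library and the neutrophil gene Camp had a peak in 3 (29.1 and 29.5 in WT, 10.2 in H3.3cKO replicate 2). Their part in the results below was not tested. The weak region over exon 2 of H3f3a, the exon the study floxed, had percentiles 5.02 and 19.1 in WT and no peak in H3.3cKO.

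Across the 10 genes the genotypes differed in both directions. Of the 52 regions 2 were gained, at Ddx58 and Adar, against 3.32% of all regions at protein-coding genes. Tmem173 had the 1 lost region, against 7.22%. Of the 38 regions called in all 4 libraries 7 were higher (10.2% over all protein-coding genes) and 5 lower (18.1%), while 26 were in neither class and the remaining 11 were called in only some libraries of a genotype. By gene, 2 of 10 had a gained region and 1 of 10 a lost one, where 11.1% and 21.8% of the 16367 protein-coding genes with a region had them. Of the higher regions 6 lay at the 3 RNA helicases, and the lower ones at Ifih1, Mavs, Tmem173 and, in 2 regions, Ikbke. The plot of every region by distance from the gene start shows these positions.

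**Figure D1:**
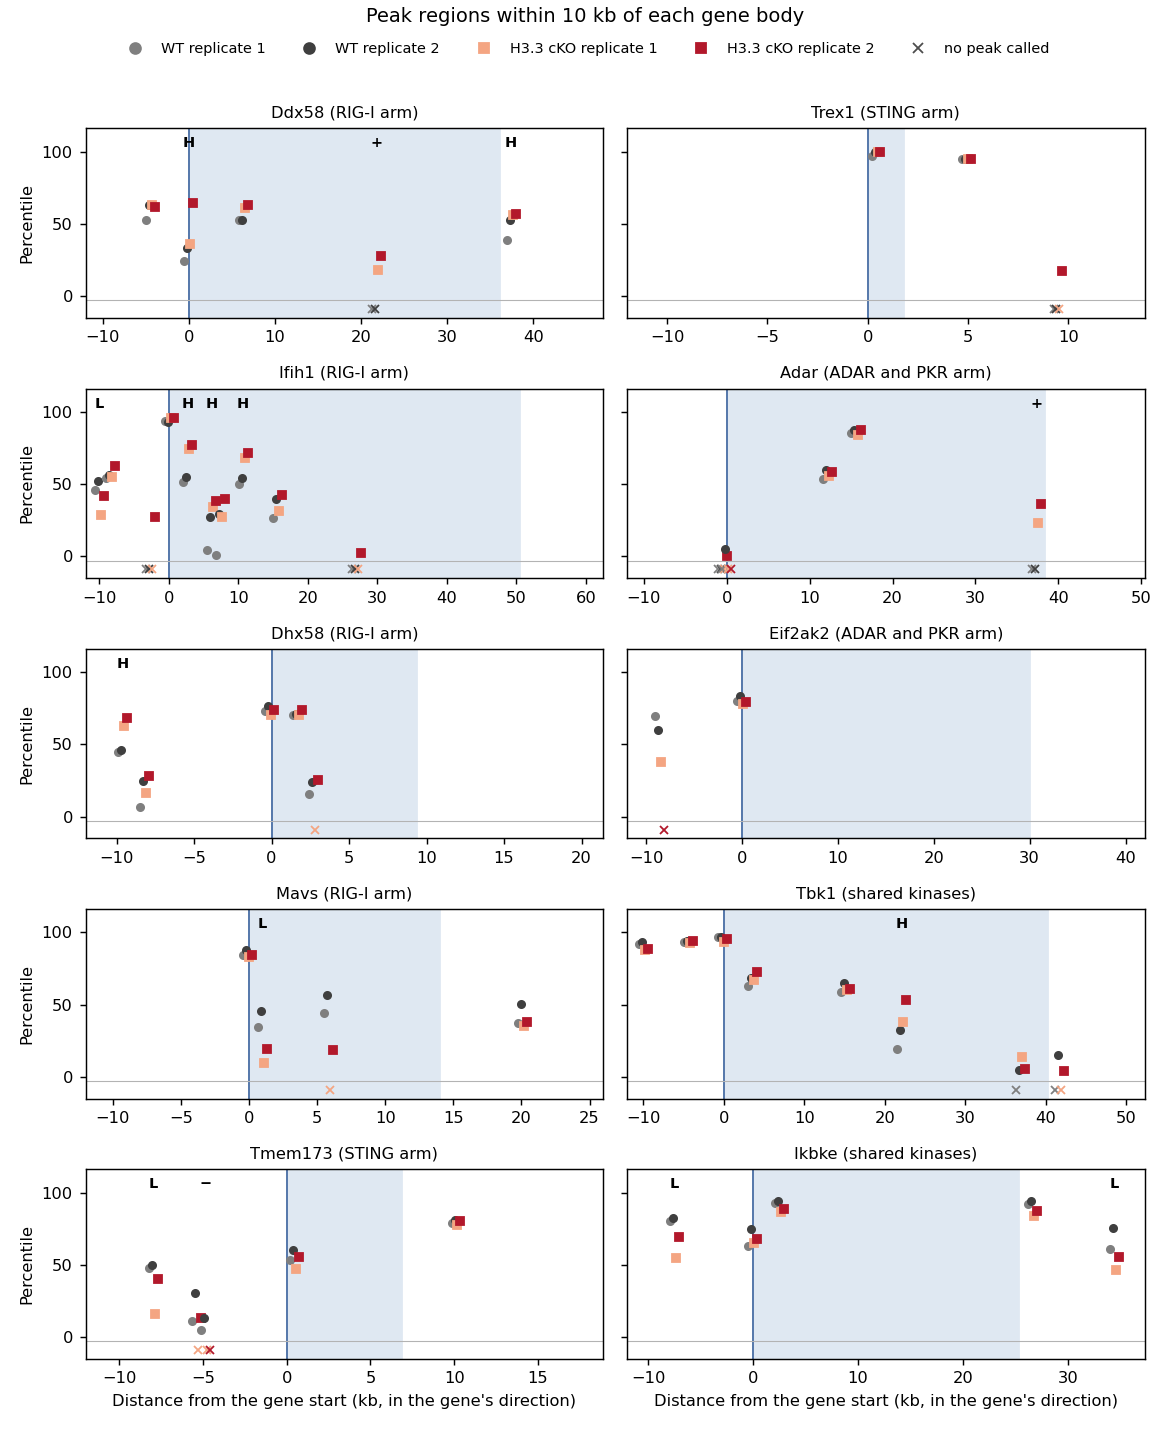
Percentile of the peak (vertical axis) at every region within 10 kb of each gene body, by distance of its summit from the gene start in kb, in the direction of transcription, with the gene body shaded. Circles are WT and squares H3.3cKO libraries, and crosses under the line mark libraries without a peak. Signs on top mark the 2 gained (+), 1 lost (−), 7 higher (H) and 5 lower (L) regions, and 3 of the higher ones stand in the first introns of Ifih1.

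Ddx58 lies on the reverse strand of chromosome 4 (mm10, 40203773 to 40239828), and all of its 4 shared regions had a higher mean percentile in H3.3cKO. Its promoter region (40238966 to 40240182) had percentiles of 24.1 and 33.2 in WT and 36.2 and 64.7 in H3.3cKO. The mean difference was 21.8 points, with SDs of 6.43 in WT and 20.1 in H3.3cKO (n = 2 each), so H3.3cKO replicate 2 stood well above the rest and replicate 1 only just above the WT libraries. Without H3.3cKO replicate 2 the difference was 7.60 points and the region was no longer called higher. Peaks there covered 578 and 405 bp in WT and 1099 and 1149 bp in H3.3cKO. In H3.3cKO replicate 1 this was a pair of peaks, 647 bp over the ISRE core (36.2) and 452 bp beside it (27.0). Replicate 2 had 1 peak of 1149 bp (64.7), so length and percentile here rest in part on how the signal was divided. The −log10 p at the summit was 3.58 and 4.14 in WT and 4.03 and 4.20 in H3.3cKO, and these values overlapped. As percentiles within each list they were 9.43 and 27.5 in WT and 28.2 and 31.5 in H3.3cKO, which did not overlap, though WT replicate 2 lay just below. By area per bp the difference was -3.45 points. The region that carries the ISRE core at the start of the RIG-I gene thus had more length under peaks in both H3.3cKO libraries.

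The gained region of Ddx58 lay in intron 10 (40217829 to 40218187), 21.8 kb downstream of the start, at percentiles of 18.1 and 27.7 in H3.3cKO with no peak in WT. It was a weak peak in both libraries, and 63.7% of its summit window is soft-masked as repeat in the assembly, against a median of 8.96% over regions at protein-coding genes. A region in intron 2 had 52.4 in both WT libraries and 60.7 and 63.4 in H3.3cKO, which is 9.58 points and just under the limit for a call. That window is 84.6% repeat-masked. The region just past the 3′ end of the gene (40202114 to 40202680) had 38.5 and 52.9 in WT and 55.9 and 56.8 in H3.3cKO and was called higher, although WT replicate 2 lay only a few points below and the difference was 3.39 instead of 10.6 points, with no call, without WT replicate 1. A region 4.46 kb upstream overlapped between genotypes, at 52.9 and 63.1 in WT and 63.4 and 61.5 in H3.3cKO.

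Ifih1, the gene of MDA5, lies on the reverse strand of chromosome 2 (62595798 to 62646255) and had 10 regions, the most of any gene here. By percentile of area, regions in its first introns differed more between genotypes than its promoter did. The promoter ranked near the top, which left it little room to rise. In intron 1, 2.69 kb from the start, the percentiles were 51.2 and 55.1 in WT and 74.1 and 77.2 in H3.3cKO, a difference of 22.5 points with SDs of 2.77 and 2.24. In intron 2, 10.7 kb from the start, they were 50.4 and 54.5 in WT and 67.8 and 71.4 in H3.3cKO, a difference of 17.2 points with SDs of 2.89 and 2.53. In both regions the gap between genotypes was several times the spread between libraries. The summit −log10 p gave the same order there, at percentiles of 64.8 and 69.3 against 84.2 and 82.9 in intron 1, and 61.9 and 66.6 against 81.1 and 82.9 in intron 2. The intron 1 peaks were also wider, at 367 and 373 bp in WT and 1047 and 920 bp in H3.3cKO. By area per bp neither call was made: the order in intron 1 turned, at percentiles of 68.0 and 70.7 in WT and 27.4 and 45.5 in H3.3cKO, and in intron 2 the genotypes overlapped, at 34.8 and 67.5 in WT and 64.7 and 67.1 in H3.3cKO.

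A further region in intron 1, 6.18 kb from the start, was called higher with 4.34 and 27.3 in WT and 34.5 and 38.6 in H3.3cKO, and a region 7.44 kb from the start overlapped with 0.936 and 29.0 in WT and 26.9 and 39.8 in H3.3cKO. WT replicate 1 was far below WT replicate 2 at both, and without WT replicate 1 the first of them had a difference of 9.29 instead of 20.8 points and was no longer called higher. The Ifih1 promoter region, with its ISRE core, was strong in all 4 libraries, at 93.8 and 93.2 in WT and 95.6 and 96.0 in H3.3cKO. A rank this high cannot go up by 10 points, so the call could not be made there. Regions that overlapped between genotypes lay 15.6 kb into the gene, at 26.5 and 39.5 in WT and 31.5 and 42.6 in H3.3cKO, and 8.45 kb upstream, at 53.9 and 56.2 in WT and 55.2 and 62.8 in H3.3cKO. The region 10.0 kb upstream was called lower, at 46.2 and 52.0 in WT and 28.7 and 41.9 in H3.3cKO, a difference of -13.9 points that was -7.28, and no longer called, without H3.3cKO replicate 1. The ISRE-bearing region 2.59 kb upstream had a peak only in H3.3cKO replicate 2, at 27.5, as did a weak region in intron 4, at 2.39.

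At Dhx58, the gene of LGP2 (chromosome 11, 100694884 to 100704271, reverse strand), the gene's own regions overlapped between genotypes. Its promoter region had 73.3 and 76.4 in WT and 70.6 and 73.8 in H3.3cKO, and a region in intron 4 had 70.4 and 71.0 in WT and 70.4 and 74.0 in H3.3cKO. The 1 higher region in the window lay 9.62 kb upstream over the start of Hspb9, a small heat shock protein gene, with 44.9 and 46.0 in WT and 62.7 and 68.3 in H3.3cKO. The peaks there differed in width and not at their summits. They covered 442 and 461 bp in WT and 1251 and 1281 bp in H3.3cKO, while the summit −log10 p was 4.31 and 4.77 in WT and 4.19 and 4.76 in H3.3cKO. A region at the start of Kat2a, a histone acetyltransferase gene, overlapped between genotypes, with 6.39 and 24.5 in WT and 16.4 and 28.2 in H3.3cKO. A weak region in intron 6 of Dhx58 had 15.5 and 24.3 in WT and 25.2 in H3.3cKO replicate 2 alone.

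Mavs (chromosome 2, 131234063 to 131248025, forward strand), the adaptor of the arm, went the other way from the helicases. A region in intron 1, 1.01 kb from the start, had 34.5 and 45.9 in WT and 9.72 and 19.4 in H3.3cKO, the largest difference among the 38 shared regions at -25.6 points (SDs of 8.06 and 6.85). A region in intron 2 had 44.2 and 56.7 in WT, no peak in H3.3cKO replicate 1 and 18.5 in replicate 2. Both sites were thus weaker in H3.3cKO, though the second meets no call by the rule for shared regions. The promoter region had 84.1 and 87.6 in WT and 83.2 and 84.1 in H3.3cKO, and a region beyond the 3′ end 37.5 and 50.5 in WT and 35.1 and 38.3 in H3.3cKO. All 3 shared regions of Mavs had the lower mean in H3.3cKO.

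The STING arm had no gained region among 8 and no higher one among its 5 shared regions. Over all protein-coding genes the shares were 3.32% and 10.2%. Tmem173, which encodes STING itself (chromosome 18, 35733679 to 35740554, reverse strand), had its differing regions upstream of the gene. The region 7.96 kb upstream was called lower, at 48.0 and 50.2 in WT and 15.7 and 39.9 in H3.3cKO, with the H3.3cKO libraries far from each other (SD 17.1). Without H3.3cKO replicate 1 the difference was -9.23 instead of -21.3 points and the call was lost. The lost region, 4.86 kb upstream (35745314 to 35745574), was weak in WT, at 4.68 and 13.2. Next to it, 5.4 kb upstream, a region had 11.4 and 30.2 in WT and 13.3 in H3.3cKO replicate 2 alone. The promoter region, which holds an ISRE core, overlapped between genotypes with 53.2 and 60.3 in WT and 46.9 and 55.3 in H3.3cKO, and so did a strong region beyond the 3′ end (77.8 to 81.2).

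At Trex1 (chromosome 9, 109057933 to 109059734, reverse strand) the promoter region was among the strongest peaks of each library. It had 96.7 and 99.5 in WT and 99.8 in both H3.3cKO libraries. In WT replicate 1 it was split into a pair of peaks, the second at 74.8, so the lowest value rests on how that library's signal was divided. Its peaks covered 2516 to 2834 bp in each library, and the region also overlaps the bodies of Atrip, whose product partners the DNA damage kinase ATR, and Shisa5. The region at the start of Shisa5 had 94.8 in both WT libraries and 94.7 and 95.2 in H3.3cKO, and another in that gene had a peak in H3.3cKO replicate 2 alone, at 17.3.

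Adar (chromosome 3, 89715022 to 89753446, forward strand) was accessible at its downstream start in all 4 libraries. The region there, 15.6 kb into the gene, had 85.1 and 87.5 in WT and 83.8 and 87.5 in H3.3cKO, the smallest difference among the 10 promoter regions. At the first annotated start few peaks passed the caller's limit: a peak was called over it only in WT replicate 2, at 4.96, and one 0.52 kb before it only in H3.3cKO replicate 2, at 0.493. A region 12.2 kb into the gene had 53.7 and 59.6 in WT and 55.8 and 58.5 in H3.3cKO. The gained region lay over exon 15 at the 3′ end (89752195 to 89753005) and also over Chrnb2, a nicotinic receptor gene, at 22.9 and 36.1 in H3.3cKO. It was broad and low: 635 and 811 bp were covered, at percentiles of area per bp of 1.05 and 1.16.

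Eif2ak2, which encodes PKR (chromosome 17, 78852564 to 78882573, reverse strand), had few regions and none inside the gene beyond the start. The promoter region, with its ISRE core, had 79.7 and 83.4 in WT and 77.9 and 79.5 in H3.3cKO. The genotypes did not overlap, but the difference of -2.87 points is small beside the SD of 2.63 in WT. A region 8.61 kb upstream, in the bodies of Sult6b1 and Gm26637, had 69.3 and 60.2 in WT, 38.1 in H3.3cKO replicate 1 and no peak in replicate 2, the clearest difference at this gene.

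Both kinases have strong promoters, and most of their regions had a lower mean in H3.3cKO (9 of 11 shared regions, against 58.5% over all protein-coding genes). At Tbk1 (chromosome 10, 121546455 to 121586787, reverse strand) the promoter region had 96.5 and 96.8 in WT and 93.0 and 95.5 in H3.3cKO. At this gene 2 regions had the higher mean, that in intron 2 given further on and a region in intron 7, 22.1 kb from the start, called higher with 19.4 and 32.2 in WT and 38.0 and 53.4 in H3.3cKO, a difference of 19.9 points with SDs of 9.02 and 10.9. The neighbouring gene Xpot, a tRNA exporter gene, had regions of 93.3 and 94.0 in WT and 92.8 and 93.9 in H3.3cKO, and of 91.9 and 93.2 in WT and 87.5 and 88.2 in H3.3cKO. Regions of Tbk1 that overlapped between genotypes lay in intron 2, with 62.7 and 68.5 in WT and 66.7 and 72.5 in H3.3cKO, and in intron 5, with 58.7 and 64.7 in WT and 59.9 and 60.7 in H3.3cKO. At its 3′ end lay a pair of weak regions, all values at 15.2 or below. That in intron 20 had 4.61 in WT replicate 2 alone and 13.5 and 5.49 in H3.3cKO. The region past the 3′ end had 15.2 in WT replicate 2 and 4.15 in H3.3cKO replicate 2, with no peak in the replicate 1 libraries.

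At Ikbke (chromosome 1, 131254343 to 131279606, reverse strand) all 5 regions had the lower mean in H3.3cKO, as did 58.5% of shared regions at all protein-coding genes. The promoter region by rule lay at a downstream start, 2.5 kb into the gene, with 93.0 and 94.5 in WT and 86.7 and 88.4 in H3.3cKO. The region at the first start overlapped, with 63.2 and 75.0 in WT and 65.1 and 67.7 in H3.3cKO. A region 7.47 kb upstream, within Srgap2, was called lower with 80.1 and 82.2 in WT and 54.5 and 69.0 in H3.3cKO, and so was a region at a start of Rassf5 beyond the 3′ end, with 61.2 and 75.7 in WT and 46.5 and 55.2 in H3.3cKO. Between them a region 26.6 kb from the start had 92.4 and 94.0 in WT and 83.6 and 87.2 in H3.3cKO. The Srgap2 region kept its call under all 9 other settings for which the calls were traced, the only one of the 15 called regions that did.

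The length of DNA under peaks separated the genes further. Ddx58 had 1785 and 1660 bp under peaks in WT and 2784 and 2817 bp in H3.3cKO. Ifih1 had 4033 and 4094 bp in WT and 5012 and 5714 bp in H3.3cKO, and Dhx58 2283 and 2232 bp against 3441 and 3377 bp. The windows of all 3 helicase genes thus had more length under peaks in both H3.3cKO libraries. At Dhx58 most of the extra length lay over the start of Hspb9, and the regions on Dhx58 itself covered 1630 and 1553 bp in WT and 1683 and 1746 bp in H3.3cKO. The covered length was also longer at Trex1 (3342 and 3477 against 4053 and 4210 bp) and Adar (1237 and 1776 against 1864 and 2307 bp). Part of the extra length at Trex1 lay over the start of Shisa5, with 826 and 825 bp in WT and 1219 and 1235 bp in H3.3cKO. The Trex1 promoter region covered 2516 and 2652 bp in WT and 2834 and 2770 bp in H3.3cKO. Over protein-coding genes 14.3% had a longer covered length in both H3.3cKO libraries, and 38.5% a shorter one. Mavs was among the shorter, with 1888 and 2153 bp in WT and 1269 and 1617 bp in H3.3cKO. So were Tmem173 (2589 and 2814 against 1507 and 2348 bp) and Eif2ak2 (1551 and 1487 against 1324 and 744 bp), while Tbk1 and Ikbke overlapped.

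**Figure D2:**
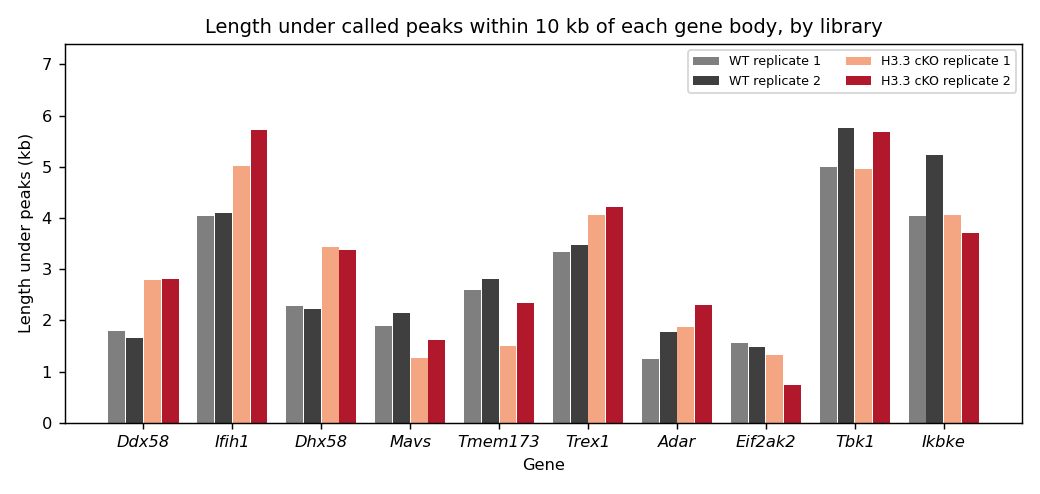
Length of DNA under called peaks in kb (vertical axis, from 0) within 10 kb of each gene body, with 1 bar per library. The H3.3cKO bars stand above both WT bars at Ddx58, Ifih1, Dhx58, Trex1 and Adar, and below both at Mavs, Tmem173 and Eif2ak2.

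Promoter accessibility, ranked by the mean over the 4 libraries, ran from Trex1 (99.0), Tbk1 (95.4), Ifih1 (94.6) and Ikbke (90.6) through Adar (86.0), Mavs (84.8), Eif2ak2 (80.1) and Dhx58 (73.5) to Tmem173 (53.9) and Ddx58 (39.5). Neighbours in this order whose libraries overlapped in WT were Trex1 and Tbk1, Ifih1 and Ikbke, and Adar and Mavs, and in H3.3cKO they were Ikbke and Adar, Adar and Mavs, and Tmem173 and Ddx58. Tbk1 lay above Ifih1 in both WT libraries and below it in both H3.3cKO libraries, so their order in the mean over all 4 is not that of each genotype. The RNA sensor RIG-I and the DNA adaptor STING thus had the weakest promoters of the group. Only the Ddx58 promoter met the call, where 3.69% of promoter regions called in all 4 libraries were higher and 7.12% lower. The exact permutation test gave the smallest possible two-sided p of 0.333 for Ddx58, Ifih1, Mavs, Trex1, Eif2ak2, Tbk1 and Ikbke, p = 0.667 for Dhx58 and Tmem173 and p = 1.00 for Adar. That smallest p says only that the genotypes did not overlap, and the share of all promoter regions that reach it was not counted. Over all promoter regions called in all 4 libraries, 59.0% had the lower mean in H3.3cKO. Apart from Ddx58, the promoter differences ran from -6.14 points at Ikbke to 2.33 at Ifih1, within the span from the 10th to the 90th percentile of all promoter regions (-8.44 to 5.07).

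**Figure D3:**
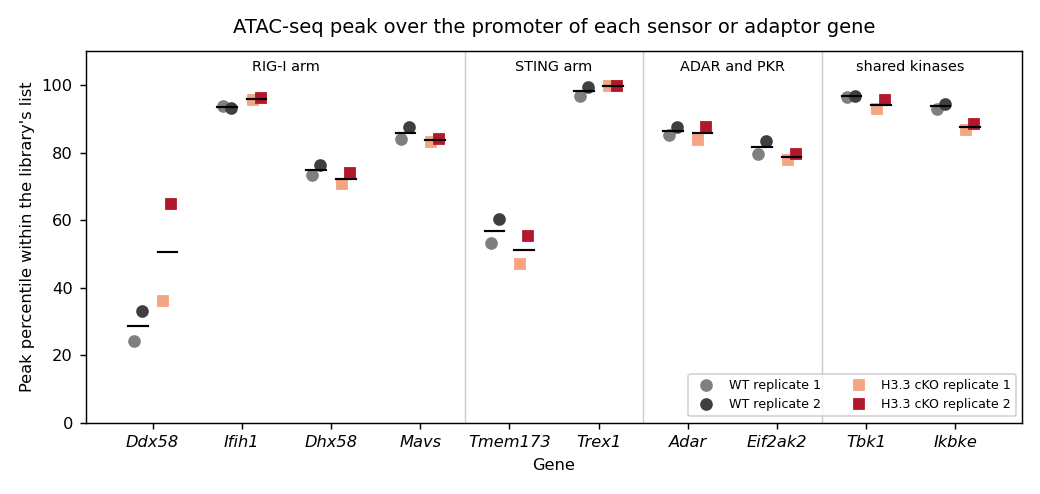
Percentile of the peak over each promoter (vertical axis) by gene, with circles for WT and squares for H3.3cKO libraries and a bar at each genotype's mean (n = 2). Ddx58 shows the widest gap, from a WT mean of 28.6 to an H3.3cKO mean of 50.5. At each other gene the genotype means lie closer, with the next widest gap at Ikbke (-6.14 points).

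Set side by side, the shared regions of the RIG-I arm and those of the kinases leaned in opposite directions. In the RIG-I arm 14 of 19 shared regions had the higher mean in H3.3cKO, with a median difference of 4.46 points. In the STING arm it was 2 of 5 with a median of -1.09, in the ADAR and PKR arm 1 of 3 with -0.605, and at the kinases 2 of 11 with -2.63. Over all protein-coding genes 41.5% of shared regions had the higher mean, and the middle 50% of differences lay between -7.67 and 3.31 points. The median there was -1.02 points, and those of the STING arm and of the ADAR and PKR arm, with few regions each, lay near it. Within the RIG-I arm the medians were 10.1 at Ddx58, 10.6 at Ifih1 and 4.19 at Dhx58 against -7.33 at Mavs. The value at Dhx58 rests on the regions over the starts of Hspb9 (20.0) and Kat2a (6.87), since the shared regions of Dhx58 itself differed by 1.52 and -2.67 points. The median percentile of an arm also varied between libraries of a genotype. Its pooled SD was 4.66 points in the RIG-I arm and 3.10 at the kinases. In the STING arm it was 1.67, and in the ADAR and PKR arm 2.04. Each of these SDs was larger than the size of that arm's median difference. No test of a difference between arms was made, since the regions of an arm share 2 libraries per genotype.

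**Figure D4:**
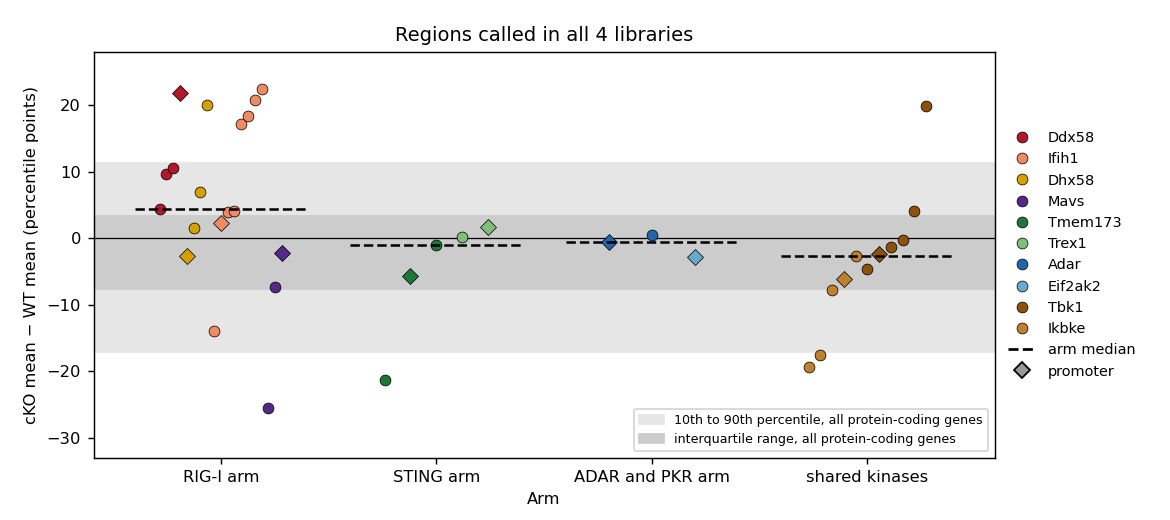
Difference of the mean percentile, H3.3cKO minus WT, in points (vertical axis) for each of the 38 regions called in all 4 libraries, by arm, with diamonds for promoters, dashed lines at the arm medians and grey bands for all protein-coding genes. Most points of Ddx58 and Ifih1 lie above the inner band, whose upper edge is at 3.31, and those of Mavs and Ikbke lie below 0.

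The direction in the RIG-I arm differed with how peaks were ranked. Ranked by the summit −log10 p its median difference was 5.20 points, with 14 of 19 regions again above 0. Ranked by area per bp, it was -1.61 points with 7 of 19 above 0, while the median over all protein-coding genes stayed near its value (-0.970). That scale divides the area by the peak's width, so it ranks a wide peak below a narrow one of equal area and is not free of width. The shared regions of the arm had median covered lengths of 401 and 405 bp in WT and 537 and 503 bp in H3.3cKO, where those at all protein-coding genes were 543 and 568 bp in WT and 491 and 523 bp in H3.3cKO. Shared regions of the RIG-I arm were thus wider in both H3.3cKO libraries, and those over all protein-coding genes were narrower. When a library without a peak was set to percentile 0, an alternative chosen after the data were seen, the 10 genes had 9 higher regions (11.1% over protein-coding genes) and 7 lower ones (21.2%), with 7 and 3 in the RIG-I arm.

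The 10 kb limit of the windows sits between regions that differ. The farthest ones inside it were the higher region at Hspb9, 9.31 kb from Dhx58, an Xpot region 9.58 kb from Tbk1 and the lower region 9.73 kb from Ifih1. Just outside lay a region 11.2 kb upstream of Mavs at 47.0 and 54.9 in WT and 19.8 and 21.7 in H3.3cKO, one 11.2 kb from Ddx58 at 25.2 and 29.6 in WT and 12.5 in H3.3cKO replicate 2 alone, and one 11.3 kb from Trex1 at 19.8 and 33.8 in WT and 40.2 and 37.2 in H3.3cKO.

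Motif letters were counted in all summit windows. PU.1 cores, bound by the lineage factor of macrophages, lay in 25 of 52 summit windows (48.1%, against 38.2% of regions at protein-coding genes), AP-1 in 9 (17.3% against 15.2%), C/EBP, searched as TTGCNNAA, in 7 (13.5% against 11.5%), GAS in 3 (5.77% against 5.82%) and the ISRE in 5 (9.62% against 3.67%). Of the 4 promoters with an ISRE core, only that of Ddx58 was called higher, and it was not without H3.3cKO replicate 2. That of Ifih1 ranked too high to rise by 10 points, so it could not be called. The higher intron regions of Ifih1 held PU.1 cores, 1 of them beside AP-1, and the higher Tbk1 intron held the GAS core. Matches of different motifs overlapped in 2 windows, GAS and PU.1 in that upstream of Eif2ak2 and AP-1 and C/EBP in that 4.41 kb upstream of Tbk1. In RefSeq's table of the 250 bases before each gene's start, of which the entries for 8 of the 10 genes were used, no window held the ISRE letters, where 2.99% of 32619 promoters did. The promoter matches printed above lie past the start, and that of the Ifih1 upstream region lies 2646 bp before it, outside the 250 bases.

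Other genes of nucleic acid sensing were counted on a list of 33 that holds none of the 10 members. They had 196 regions, of which 15 were gained, at 10 genes, and 10 lost, at 8 genes, where 3.32% and 7.22% of regions and 11.1% and 21.8% of genes had such calls over all protein-coding genes. Of the 138 shared regions 13 were higher (10.2% over all) and 22 lower (18.1%), with a median difference of -0.879 points. Among the RIG-I ligases and cofactors 7 of 56 regions were gained (3.32% over all) and 2 lost (7.22%). Trim25, a ubiquitin ligase of RIG-I, had 3 gained regions, the strongest 23.0 kb from the start of the gene at 70.5 and 76.4 in H3.3cKO and the next at 48.6 and 55.1. Zc3hav1, which encodes the antiviral protein ZAP, had 2, with 51.9 and 65.0 in the stronger, and Rnf135, another RIG-I ligase, had 1 at 29.9 and 51.2. The third Trim25 region had 14.7 and 37.1, and the second of Zc3hav1 17.5 and 11.4, so these gained sites ran from weak to strong ones.

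Among cytosolic DNA sensors and nucleases 6 of 60 regions were gained (3.32% over all) and 1 lost (7.22%). Zbp1, a sensor of Z-form nucleic acids that starts necroptosis, had 3 gained regions, the strongest at 15.6 and 43.5 in H3.3cKO, and its promoter had 82.2 and 83.6 in WT and 91.3 and 92.0 in H3.3cKO. Aim2 (31.9 and 34.8), Samhd1 (3.08 and 14.4) and Rnaseh2a (18.9 and 18.1) had 1 gained region each. Rnaseh2b had the lost one, at 13.2 and 35.7 in WT. The gene of cGAS itself had no gained or lost region and 2 lower ones, with a promoter of 93.1 and 94.7 in WT and 92.2 and 93.8 in H3.3cKO.

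The signalling partners had 2 gained (3.32% over all) and 4 lost (7.22%) of 47 regions, near the shares over all protein-coding genes. Traf3 held 1 gained (6.82 and 28.8) and 2 lost regions, Traf6 1 gained (4.03 and 5.68), and Traf2 (41.2 and 43.8 in WT) and Tank (26.3 and 34.9 in WT) 1 lost each. Irf3, the target of the kinases, had neither, and its promoter had 79.0 in both WT libraries and 78.4 and 84.9 in H3.3cKO. The endosomal receptors and adaptors had no gained region and 3 lost of 33, against the same shares. Unc93b1, the chaperone that carries the nucleic acid-sensing Toll-like receptors to endosomes, had 2 of them, the stronger at 67.1 and 68.4 in WT, and Myd88 had 1, at 32.4 and 43.4. The last 3 single regions were a gained one at Lsm14a (1.53 and 9.12) and lost ones at Adarb1 (29.2 and 38.7) and G3bp1 (15.3 and 18.2).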

How the data were processed

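ATAC-seq peak lists of 4 BMDM libraries, 2 WT and 2 H3.3cKO by their titles, were analysed. Per the study's methods and the submitters' processing notes, the authors aligned paired reads to mm10 (Bowtie2 2.5.1) and ran Genrich with its defaults, here 1 list per library. Read filters and any shift of read ends for Tn5 were not given in the sources used here. The deposited signal column is the area under Genrich's significance curve, which grows with height, width and read depth, and the deposited −log10 p-value column is the value at the summit. The lowest deposited area was 200 in each list, so a site below it is missing and not known to be closed. Depths are unknown, and no interval for counting error could be given. The study's test of reads in shared peaks could not be made from lists.

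Peaks overlapping by at least 1 bp were merged into regions, and a library's highest percentile in a region was taken (pandas 2.3.3, numpy 2.4.6, matplotlib 3.10.9). Gene bodies came from the GENCODE M21 basic annotation. A promoter region was the top-ranked one from 1 kb upstream to 100 bp downstream of any annotated start of the gene. Sequences and repeat masking came from RefSeq's GRCm38.p6, and coordinates are 1-based. The calling was checked on simulated peak lists.

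The 10 genes, arms, list of 33 other genes, markers and motifs were chosen with earlier results of these data known. The genes named are the 10 members, H3f3a, genes under a member's region and those of the list with a gained or lost region. Cgas and Irf3 were added after their values were seen. For 1 further gene of the list and 1 further marker of another cell type, which the counts leave out, the results are not reported here. Alternatives were stricter peaks, lists of equal length, coverage of at least 50% of a region, windows of 2 or 50 kb, the summit −log10 p, area per bp, no minimum difference, each library left out and the replicate block.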

Additional observations from a re-analysis of the deposited data

How the results depend on the processing

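Limits. No call here rests on a test that could pass at 2 libraries per genotype, ranks near 100 cannot go up, and a weak site missing from a list may lie just under the caller's limit. Promoter differences were recomputed with lists of equal length, by the summit −log10 p, by area per bp, under the replicate block and with each library left out, and those of Adar, Ddx58 and Eif2ak2 alone changed sign under any of these. By area per bp the difference was -3.45 points at Ddx58 and 11.2 at Eif2ak2. At Adar it was 0.433 with lists of equal length, 4.08 by area per bp and 3.55 by the summit −log10 p, and -2.47 to 1.26 with each library left out. The cause was not tested, though area per bp divides the area by the peak's width by construction.

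Of the 15 called regions, 13 were called again with lists of equal length and 3 among peaks above the median area of their list, where a region weaker than the median in some libraries is missing from those lists. Gained regions numbered 1 among those stronger peaks, 6 when peaks had to cover 50% of a region and 2 to 6 with each library left out, the 6 without H3.3cKO replicate 1. The 1 among stronger peaks was neither the gained region of Ddx58 nor that of Adar. Those calls, and the lost one of Tmem173, were not made again among stronger peaks. Lost regions numbered 0 with windows of 2 kb, 6 with 50 kb, 3 at 50% coverage and 1 to 4 with each library left out, where 2 were lost without WT replicate 1 or without H3.3cKO replicate 1 and 4 without H3.3cKO replicate 2. Higher regions numbered 11 with 50 kb, 2 among stronger peaks, 4 at 50% coverage and 5 to 10 with each library left out. Lower regions numbered 1 with 2 kb, 13 with 50 kb, 11 with no minimum difference, 1 among stronger peaks, 3 at 50% coverage, 11 by area per bp and 4 to 6 with each library left out. Of the 34528 shared regions at all protein-coding genes, 7413 were lower by area per bp, where 6244 were by area. Higher ones there numbered 5050 by area per bp and 3536 by area. For the other settings in this paragraph the shares over all protein-coding genes were not counted.

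The median difference of the RIG-I arm was 9.58 points with 2 kb, 2.49 with 50 kb, -1.61 by area per bp and 2.16 to 9.59 with each library left out, the latter without WT replicate 2. That of the STING arm was -3.04 with 50 kb, -3.35 by area per bp and -2.35 to 0.00796 with each library left out. In the ADAR and PKR arm it was -2.89 with 50 kb, 4.08 by area per bp and -3.08 to 1.26 with each library left out. At the kinases it was -6.58 by area per bp and -4.87 to -1.32 with each library left out. Under the replicate block the medians were 4.46, -1.09, -0.605 and -2.63, equal to the unpaired values because the design is balanced. Deviations of same-numbered libraries correlated at 0.295 over 44820 shared regions, and the labels do not say that a number marks a shared batch, so the libraries were not treated as pairs.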

Other observations

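Of the 52 summit windows 5 were soft-masked as repeat over more than 50% of their length (9.62%, against 4.90% of regions at protein-coding genes). They were the gained region in intron 10 of Ddx58 (63.7%), the region in its intron 2 (84.6%), the region in intron 4 of Dhx58 (69.7%), a region near Trex1 called in H3.3cKO replicate 2 alone (67.2%) and the region 26.6 kb from the start of Ikbke (73.1%). The median masked share was 9.95% over the member regions and 8.96% over all regions at protein-coding genes. How the authors treated reads that map to several places was not given in the sources used here.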
